A study of Bos taurus with 15 samples.

Results

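Of 10 genes commonly used to mark macrophages, 8 were present among the 13896 genes measured in subcutaneous adipose tissue of dairy cows around first calving, in all 6 comparison tables. These were *CD163*, *MSR1*, *CD14*, *CSF1R*, *CD68*, *AIF1*, *TYROBP* and *TREM2*. *MRC1* and *MARCO* had no entry under these symbols and were not analysed here. Members were taken by their symbol.

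The tissue was fat of the dewlap, the skin fold under the neck, taken by biopsy from primiparous Holstein cows. The 15 libraries formed 5 groups of 3. The first group was sampled at -4 weeks peripartum (wkpp), before the diets began. The other groups received a low energy (LE) or a high energy (HE) diet from that time on and were sampled at 1 and 16 wkpp. Libraries labelled LE are called SNEB here, for severe negative energy balance, and those labelled HE are called MNEB, for moderate negative energy balance. The labels give the diet alone, whereas the study formed its SNEB and MNEB groups by energy balance at 1 wkpp. The 3 cows sequenced for each group were those with the most extreme energy balance at 1 wkpp, so that diet and this choice cannot be told apart, and all cows were fasted before the biopsy. The 3 libraries at -4 wkpp carry no diet and were compared with both NEB groups. The libraries could be placed in their groups but not tied to single cows, and they are lettered a, b and c within a group by decreasing depth. Nothing in the labels says which libraries of different weeks came from the same cow, so p-values measure the spread between these libraries alone. The study took its biopsies from each animal at all 3 times, so libraries of 1 and 16 wkpp in a NEB group would be repeated samples of the same 3 cows. The 3 libraries at -4 wkpp cannot hold all cows of both NEB groups, and which cows they came from is not given. The comparisons between weeks and the interaction treat all libraries as independent. The sample titles also carry a tag, m1 or m2, of a meaning that is not given. It was m2 for SNEB at 1 wkpp and MNEB at 16 wkpp and m1 for the other groups, so tag and group cannot be told apart.

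Macrophages of adipose tissue derive from circulating monocytes or renew in place, take up dead adipocytes and released lipid, and shape the inflammatory state of the depot. Around calving, lipolysis exposes these cells to large fluxes of fatty acids. Their markers have different roles. Scavenger and pattern receptors (*CD163*, *MSR1*, *CD14*) bind ligands at the cell surface, *CSF1R* carries the survival signal of the lineage, *CD68* and *AIF1* are intracellular, and *TREM2* signals through the adaptor TYROBP.

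The libraries were of unequal depth. Exonic reads per library were 1927489 to 7074879 in MNEB and 7232212 to 13585409 in the other 9 libraries. Synthetic spike-in RNAs took 2.96 to 19.9% of the exonic reads in the 6 MNEB libraries and 0.194 to 1.61% elsewhere. The summed level of 6 skeletal muscle genes was 1172 to 4035 normalised reads in the MNEB libraries against 71.9 to 342 in the others. Depth, spike-in share and muscle RNA therefore moved with the groups in both comparisons of SNEB with MNEB and in that of -4 with 1 wkpp in MNEB, and their part in the results was not tested.

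The 8 genes were set beside a further list of macrophage and monocyte genes. Of its 47 genes, 38 were in the tables and each of them had reads in every group. This further list held the complement genes *C1QA*, *C1QB* and *C1QC*, the transcription factor *SPI1* and the integrin *ITGAM*. The measured genes of the T cell, B cell, neutrophil, adipocyte and endothelium lists also had reads in every group. Reads alone therefore do not show that the 8 genes stand for macrophages in this tissue. Among 10488 genes compared over the 15 libraries, the 10 whose values followed the mean of the standardised markers most closely had a Pearson correlation of 0.947 to 0.98 with it. These were *LOC407171*, *NCKAP1L*, *LAPTM5*, *MPEG1*, *VNN2*, *FOLR2*, *FCER1G*, *C1QB*, *CD53* and *ACP5*. Of these 10, 5 were on the further macrophage list, which held 38 of the 13896 genes measured. The libraries share their groups and their depth, so these correlations are a description. In bulk tissue, fewer macrophages and less RNA of a gene per macrophage cannot be told apart.

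Summed, the markers were lowest in MNEB at 16 wkpp and highest in SNEB. *CD163* and *CSF1R* gave most of this sum, with 62660 and 61794 exonic reads over the 15 libraries, against 13185 for *CD68*, the next. Together they took 318 ± 21.4 (SD, n = 3) of every 1000000 exonic reads in MNEB at 16 wkpp and 689 ± 388 in MNEB at 1 wkpp. The sum was 909.6 ± 145 at -4 wkpp, 1531 ± 353 in SNEB at 1 wkpp and 1872 ± 270 in SNEB at 16 wkpp. The libraries of MNEB at 16 wkpp, at 301 to 342, lay below those of -4 wkpp, at 811 to 1076, and below all SNEB libraries, the lowest of which was at 1193. One library of MNEB at 1 wkpp, at 1089, lay above all libraries of -4 wkpp.

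*CD163*, the scavenger receptor for haptoglobin-haemoglobin complexes, separated the NEB groups most widely at 16 wkpp. Its normalised exonic reads, that is reads divided by the size factor of the library, were 1712, 1883 and 1510 in the libraries a, b and c at -4 wkpp. They were 2712, 586 and 981 in MNEB at 1 wkpp and 463, 640 and 509 in MNEB at 16 wkpp. In SNEB they were 4978, 4488 and 4045 at 1 wkpp and 6770, 4991 and 4118 at 16 wkpp. All 6 SNEB libraries lay above all 9 others, and the 3 libraries at -4 wkpp lay within the range of MNEB at 1 wkpp. How many of all genes had this order was not counted. The group means were in the order SNEB at 16 wkpp (5293 ± 1351), SNEB at 1 wkpp (4504 ± 467), -4 wkpp (1702 ± 187), MNEB at 1 wkpp (1427 ± 1131) and MNEB at 16 wkpp (537 ± 92.0), and among neighbours in this order the libraries were apart only between SNEB at 1 wkpp and -4 wkpp.

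*MSR1*, a scavenger receptor for modified lipoproteins, had 380, 548 and 419 normalised exonic reads at -4 wkpp. It had 364, 86 and 320 in MNEB at 1 wkpp, and 89, 98 and 133 in MNEB at 16 wkpp. SNEB libraries gave 457, 1121 and 439 at 1 wkpp and 690, 515 and 1310 at 16 wkpp. Every SNEB library was above every MNEB library, at both weeks. The 3 libraries at -4 wkpp were also above the 6 MNEB libraries, with 380 as the lowest against 364 as the highest, and overlapped with SNEB.

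*CD14*, the co-receptor for bacterial lipopolysaccharide, had 349, 739 and 304 normalised exonic reads at -4 wkpp. In MNEB it had 410, 46 and 140 at 1 wkpp and 81, 118 and 143 at 16 wkpp. In SNEB it had 756, 1250 and 451 at 1 wkpp and 502, 591 and 1169 at 16 wkpp. Here too the 6 SNEB libraries were all above the 6 MNEB libraries, although the nearest values were 451 and 410. *CD14* was the single marker with its highest mean in SNEB at 1 wkpp (819 ± 403) and not at 16 wkpp (754 ± 362), and these groups overlapped.

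*CSF1R*, the receptor for colony stimulating factor 1 and interleukin 34, spanned the narrowest range in proportion to its level, from 984 to 5376 over the 15 libraries. Its normalised exonic reads were 2894, 3576 and 2688 at -4 wkpp. In MNEB they were 3107, 1215 and 2705 at 1 wkpp and 1278, 984 and 1392 at 16 wkpp, and in SNEB 3367, 3870 and 2656 at 1 wkpp and 5376, 4167 and 4710 at 16 wkpp. SNEB at 16 wkpp stood above all other libraries, with a mean of 4751 ± 605, and SNEB at 1 wkpp, with 3297 ± 610, overlapped with -4 wkpp (3053 ± 465) and with MNEB at 1 wkpp (2342 ± 997). MNEB at 16 wkpp, with 1218 ± 210, overlapped with MNEB at 1 wkpp alone, through library b of that group.

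*CD68*, a glycoprotein of the lysosome membrane, had 463, 705 and 344 normalised exonic reads at -4 wkpp. Its values were 628, 111 and 412 in MNEB at 1 wkpp, 86, 195 and 160 in MNEB at 16 wkpp, 528, 1786 and 309 in SNEB at 1 wkpp, and 844, 561 and 1741 in SNEB at 16 wkpp. The NEB groups were apart at 16 wkpp and overlapped at 1 wkpp. In each SNEB group 1 library, b at 1 wkpp and c at 16 wkpp, stood above the other 2. *AIF1*, which encodes the actin-binding protein IBA1, spanned a narrower range. Its group means were 148 ± 48.5 at -4 wkpp, 90.3 ± 36.6 and 83.3 ± 34.7 in MNEB at 1 and 16 wkpp, and 200.3 ± 125 and 223 ± 82.6 in SNEB at 1 and 16 wkpp. The highest *AIF1* value of MNEB at 1 wkpp was 124.0 and the lowest of SNEB was 124.7, so the separation of these libraries rests on a difference of less than 1 normalised read.

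*TYROBP*, the adaptor that carries the activating motif for TREM2 and related receptors, had 74, 131 and 68 normalised exonic reads at -4 wkpp. It had 121, 11 and 29 in MNEB at 1 wkpp, 11, 28 and 49 in MNEB at 16 wkpp, 78, 293 and 53 in SNEB at 1 wkpp, and 131, 95 and 225 in SNEB at 16 wkpp. The libraries of SNEB at 16 wkpp were above those of MNEB at 16 wkpp, and at 1 wkpp the groups overlapped. *TREM2*, the lipid-sensing receptor of lipid-associated macrophages, had the fewest reads. It was counted 3 to 15 times in the libraries of MNEB at 16 wkpp, 4 to 73 times in MNEB at 1 wkpp and 14 to 210 times in SNEB at 1 wkpp, so its values rested on few reads. Its normalised reads were 16, 23 and 20 at -4 wkpp, 76, 16 and 15 in MNEB at 1 wkpp, 15, 8 and 8 in MNEB at 16 wkpp, 18, 118 and 9 in SNEB at 1 wkpp, and 68, 13 and 69 in SNEB at 16 wkpp. In both groups of 1 wkpp a single library stood above the other 2, in SNEB at 16 wkpp a single library stood below them, and *TREM2* did not separate SNEB from MNEB at either week.

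**Figure D1:**
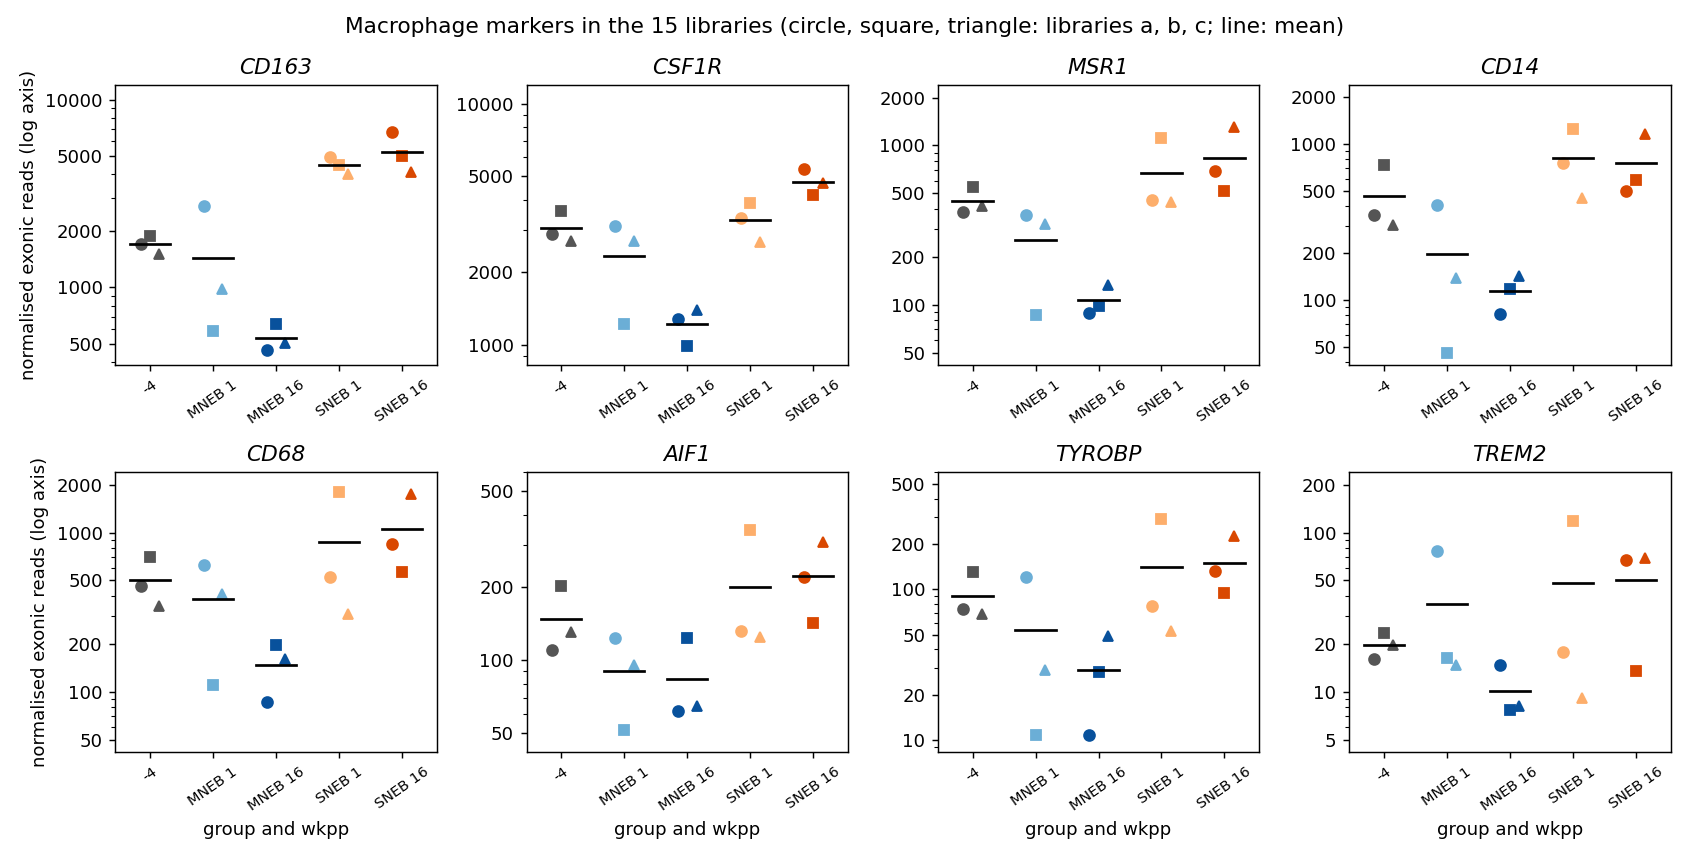
Normalised exonic reads (logarithmic vertical axis) of the 8 macrophage markers in the 15 libraries, by group and week peripartum; circles, squares and triangles are libraries a, b and c and the line is the group mean. All 6 SNEB libraries lie above all 6 MNEB libraries for CD163, MSR1, CD14 and, by less than 1 normalised read, AIF1, and TREM2 overlaps at both weeks. Within a week, all SNEB libraries lie above all MNEB libraries in 19.2% of the genes tested at 1 wkpp and 22.1% at 16 wkpp.

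Most groups had 1 library that was the highest for nearly all markers. At -4 wkpp library b was the highest of its group for all 8 markers, and in MNEB at 1 wkpp library a was the highest for all 8. In SNEB at 1 wkpp library b was the highest for 7 markers, with *CD163* as the exception, and library c was the lowest for all 8. In SNEB at 16 wkpp library c was the highest for 6 markers, *CD163* and *CSF1R* being higher in library a. MNEB at 16 wkpp had no such library, since the highest was a for 1 marker, b for 3 and c for 4. After subtraction of the group means, the pairwise Pearson correlations over the 15 libraries were 0.604 to 0.926 (median 0.821) among *CD68*, *AIF1*, *CD14*, *MSR1*, *TREM2* and *TYROBP*. With *CD163* or *CSF1R* the same 6 genes gave 0.428 to 0.817 (median 0.605), and *CD163* with *CSF1R* gave 0.69. *CD68* and *MSR1* were the closest pair.

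The median coefficient of variation of the 8 markers was 26.2% at -4 wkpp, 73.5% in MNEB at 1 wkpp, 32.7% in MNEB at 16 wkpp, 60.0% in SNEB at 1 wkpp and 46.3% in SNEB at 16 wkpp. In SNEB at 1 wkpp it was 10.4% for *CD163* and 125% for *TREM2*. The ratio of *CD163* to *CSF1R* exonic reads does not depend on library scaling. It was 0.527 to 0.591 at -4 wkpp, 0.363 to 0.873 in MNEB at 1 wkpp and 0.362 to 0.65 in MNEB at 16 wkpp, against 1.16 to 1.52 in SNEB at 1 wkpp and 0.874 to 1.26 in SNEB at 16 wkpp. All 6 SNEB libraries had the higher ratio, by a margin of 0.874 to 0.873 at the nearest pair.

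**Figure D2:**
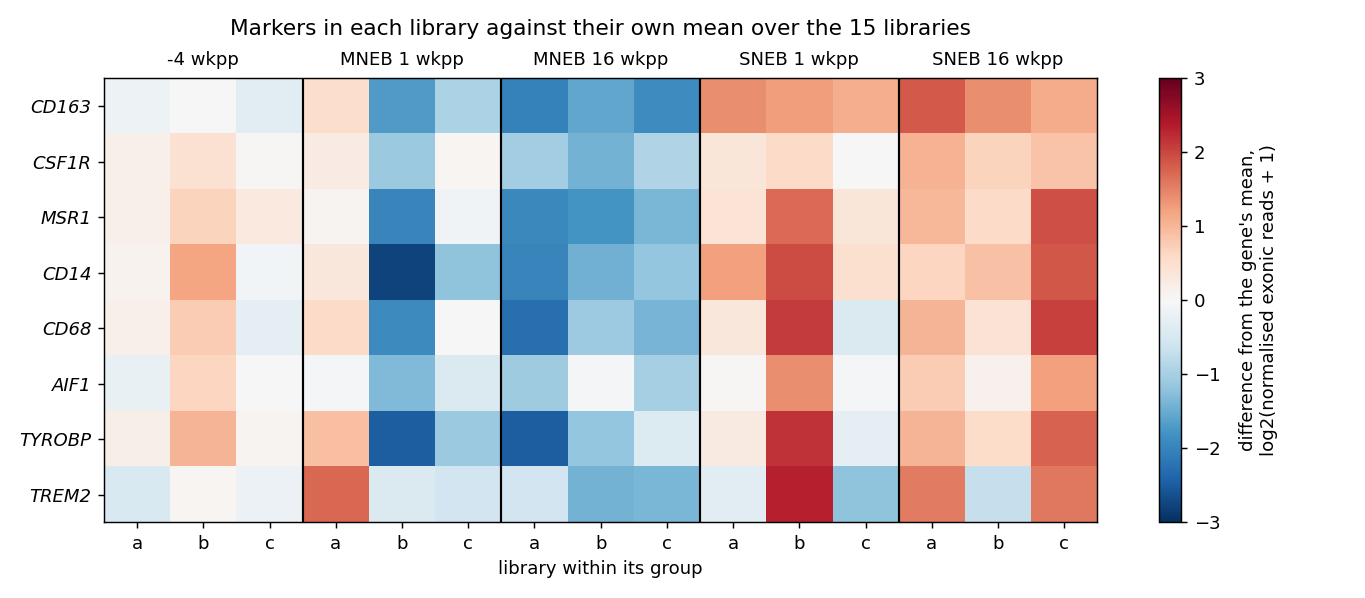
Difference of each marker in each library from the mean of that marker over the 15 libraries, on the scale of log2(normalised exonic reads + 1); red is above and blue below the mean, and vertical lines separate the groups. MNEB at 16 wkpp is below the mean for all markers, and library a of MNEB at 1 wkpp and library b of SNEB at 1 wkpp are the highest of their groups for 8 and 7 markers.

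SNEB and MNEB cows were compared at 16 wkpp, with the diets still given, to ask how the tissue differed in later lactation. The names SNEB and MNEB refer to energy balance at 1 wkpp. In the full groups of the paper, mean energy balance at 16 wkpp was less negative in both groups and nearer between them than at 1 wkpp. A gene was called when the adjusted p-value of limma was below 0.01 both for exonic reads and for reads of the entire gene, with the same sign. Of the 8 markers 3 were called, all of them higher in SNEB, where 1.03% of the 10218 genes tested were called higher, and 3.6% were called in either direction. *CD163* was 9.89-fold higher (log2 fold change 3.31, SE 0.23, adjusted p = 0.000266). *MSR1* was 7.77-fold higher (log2 fold change 2.96, SE 0.44, adjusted p = 0.00237) and *CSF1R* 3.94-fold higher (log2 fold change 1.98, SE 0.20, adjusted p = 0.000685). With reads of the entire gene the log2 fold changes were 3.18 for *CD163*, 2.91 for *MSR1* and 2.06 for *CSF1R*, with adjusted p of 0.0014, 0.00205 and 0.00205.

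For *CD68* and *CD14* the exonic reads passed the threshold and the reads of the entire gene did not. *CD68* had an exonic log2 fold change of 2.95 (SE 0.51, adjusted p = 0.0043) and 2.82 for the entire gene (SE 0.62, adjusted p = 0.0221). *CD14* had 2.79 (SE 0.43, adjusted p = 0.00269) and 2.65 for the entire gene (SE 0.55, adjusted p = 0.0188). The share of their reads outside exons was 0.700% and 0.157%. Exonic reads alone thus gave 5 of 8 markers, where 10.2% of all genes passed, and an adjusted p below 0.05 for both kinds of reads gave the same 5, where 13.0% did. *TYROBP* had an exonic log2 fold change of 2.78 (SE 0.67, adjusted p = 0.018), *AIF1* of 1.52 (SE 0.42, adjusted p = 0.0309) and *TREM2* of 1.81 (SE 1.05, adjusted p = 0.236). Over all alternatives *TYROBP* had 1.88 to 3.17 (adjusted p 0.00852 to 0.146), *AIF1* 1.22 to 1.81 (0.0103 to 0.197) and *TREM2* 1.38 to 2.55 (0.0112 to 0.516). Libraries of SNEB were all above those of MNEB for 7 of the 8 markers, *TREM2* being the exception, against 22.1% of the 10356 genes tested on exonic reads.

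The calls of *CD163* and *CSF1R* held without any 1 of the 6 libraries. *MSR1* was no longer called without library a, b or c of MNEB at 16 wkpp, with exonic adjusted p of 0.0276, 0.0104 and 0.0137. Over all genes 368 were called with 6 libraries and 50 to 126 with 5.

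**Figure D3:**
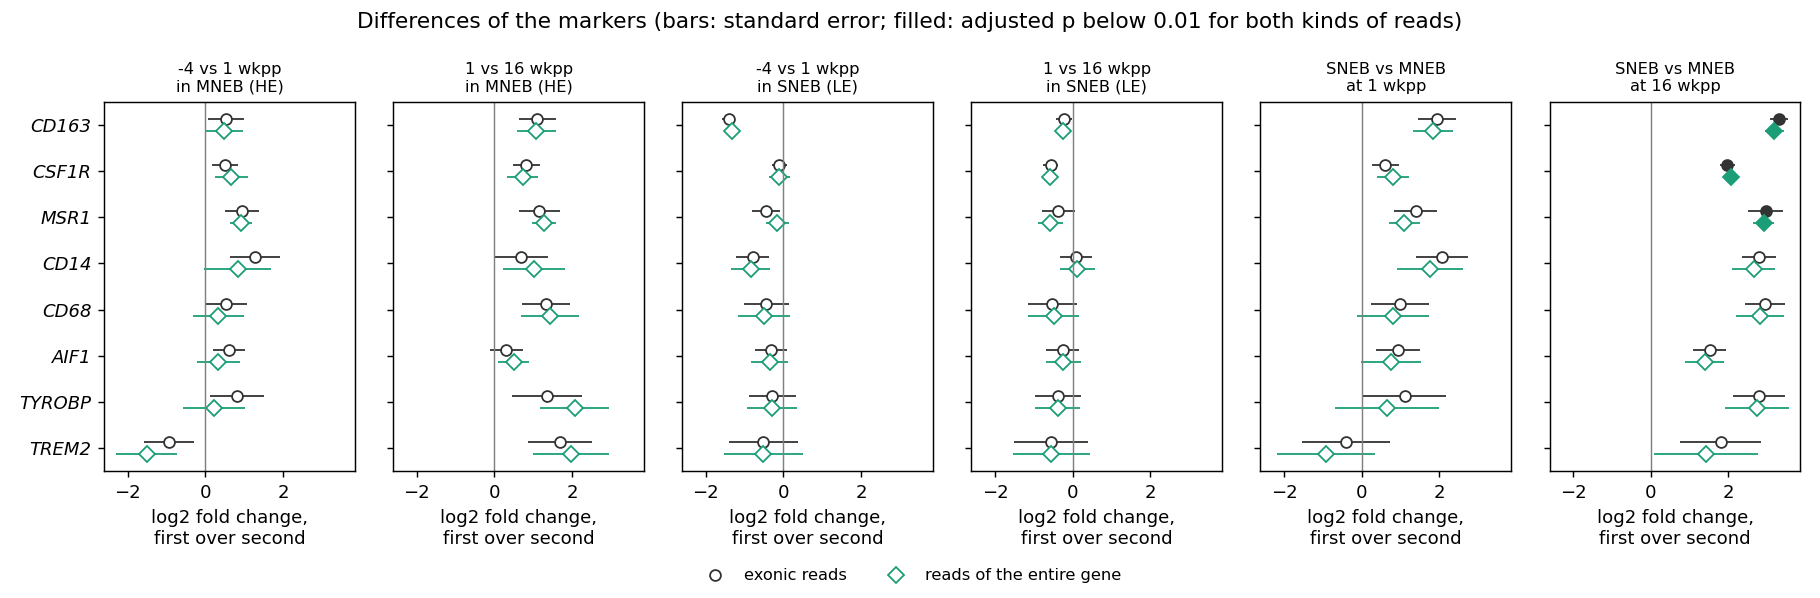
Log2 fold changes of the 8 markers in the 6 comparisons, the first group named over the second, for exonic reads (circles) and reads of the entire gene (diamonds); bars are standard errors and filled symbols passed an adjusted p of 0.01 in both. The 3 filled markers, CD163, CSF1R and MSR1, are in the comparison of SNEB with MNEB at 16 wkpp.

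At 1 wkpp no marker was called between SNEB and MNEB, and none of the 10305 genes tested was (0.0%). On exonic reads alone 201 genes (1.92%) and no marker passed the adjusted threshold, and 3401 of 10447 genes (32.6%) had an unadjusted p below 0.05. The exonic log2 fold changes of the markers ran from -0.40 for *TREM2* to 2.07 for *CD14* (SE 0.68, adjusted p = 0.0695). *CD163* had 1.95 (SE 0.48, adjusted p = 0.0276) and *MSR1* 1.39 (SE 0.55, adjusted p = 0.119). The median of the 8 markers was 1.05, beside 0.76 for the further macrophage genes, 0.08 over all genes, 2.33 for 4 neutrophil genes, 1.45 for 5 adipocyte genes and 2.25 for the single keratinocyte gene tested, and the part of these cells in the marker values was not tested. Of the 4 neutrophil genes 3 had a mean below 10 reads in MNEB and passed the filter only through their reads in SNEB, against 4.38% of all genes. *CD163*, *MSR1*, *CD14* and *AIF1* had all SNEB libraries above all MNEB libraries, 4 of 8 markers against 19.2% of the genes tested. Library a of MNEB at 1 wkpp, the deepest of its group, was the one nearest to SNEB. Without it *CD163* was called (exonic log2 fold change 2.62, adjusted p = 0.00458) and 353 genes were called over all, with adjusted p of *CD163* from 0.00285 to 0.113 over all alternatives. The values of *CD14* and *MSR1* also moved with libraries of the same group, with *CD14* at 3.32 without library a of MNEB (adjusted p = 0.0244, over all alternatives 0.0244 to 0.294) and 1.39 without library b. *TYROBP* and *TREM2* ranged more widely over all alternatives, from 0.38 to 2.57 and from -1.47 to 0.76. *MSR1* had 1.99 without library a of MNEB (adjusted p = 0.0852, over all alternatives 0.0612 to 0.288) and 0.82 without library b.

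In MNEB cows the comparison of -4 with 1 wkpp gave 176 called genes of 10353 (1.7%) and 0 of the 8 markers. Exonic log2 fold changes, -4 over 1 wkpp, were positive for 7 markers, as for 53.3% of all genes, and ran up to 1.28 for *CD14* (SE 0.65, adjusted p = 0.159). *TREM2* had -0.93 (SE 0.64, adjusted p = 0.294). Without library a of MNEB at 1 wkpp *TREM2* had 0.24, and without library b *CD68* had -0.12. *CD14* had 2.52 without library a (adjusted p = 0.0211, over all alternatives 0.0211 to 0.626) and 0.59 without library b, *MSR1* had 1.53 and 0.36, and *TYROBP* had 2.29 and 0.084. In this comparison the spike-in share was 0.519 to 1.58% at -4 wkpp against 2.96 to 19.9%, and the muscle sum 71.9 to 342 against 1172 to 4035. None of the 8 exonic adjusted p-values was below 0.129. *MSR1* had its -4 wkpp libraries above those of MNEB at 1 wkpp, 1 of 8 markers against 23.2% of all genes. Without library a of MNEB at 1 wkpp the exonic log2 fold change of *CD163* was 1.21 in place of 0.53 and passed the threshold (adjusted p = 0.00794, over all alternatives 0.00794 to 0.928).

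Between 1 and 16 wkpp in MNEB no marker and none of 9824 genes was called (0.0%), and 1337 of 9947 genes (13.4%) had an unadjusted p below 0.05 on exonic reads. All 8 markers had a higher fitted level at 1 wkpp, with exonic log2 fold changes from 0.31 for *AIF1* to 1.69 for *TREM2*. Adjusted p-values were 0.342 to 0.764. The median of the 8 markers was 1.13 against -0.01 over all genes. *CSF1R* had 0.83 (SE 0.34, over all alternatives 0.58 to 1.24) and *CD163* 1.10 (SE 0.48, over all alternatives 0.49 to 1.55). Only *TREM2* had libraries that did not overlap, against 9.77% of all genes with the higher libraries at 1 wkpp. Its nearest pair was at 14.7 and 14.67 normalised reads, and it passed the filter on low reads in this comparison through the 73 reads of 1 library at 1 wkpp. Without that library, a of MNEB at 1 wkpp, *TREM2* fell under the filter, and *AIF1*, *CD14* and *TYROBP* had log2 fold changes of the opposite sign.

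In SNEB cows *CD163* had the largest difference of the markers between -4 and 1 wkpp. It was 2.65-fold lower at -4 wkpp on exonic reads (log2 fold change -1.41, SE 0.17, adjusted p = 0.0068), and the reads of the entire gene gave a log2 fold change of -1.33 with an adjusted p of 0.0277. Of the 8 markers 0 were called, beside 4 called genes of 10544 (0.0379%). On exonic reads alone 1 of 8 markers passed, against 0.505% of all genes, and with an adjusted p below 0.05 for both kinds of reads 1 of 8, against 0.56%. *CD163* ranked 32 of 10698 genes by p, and its libraries at -4 wkpp, at most 1883, lay below those of SNEB at 1 wkpp, at least 4045, an order seen in 9.23% of all genes. Its log2 fold change stayed between -1.48 and -1.32 over the alternatives, with adjusted p of 0.00389 to 0.0757, and the exonic adjusted p was above 0.01 without library a or c of SNEB at 1 wkpp or any 1 library at -4 wkpp, and with all 15 libraries in one fit. For the other 7 markers the log2 fold changes were between -0.79 and -0.11, with the lowest adjusted p at 0.446 for *CD14*. *CSF1R*, at -0.11 (SE 0.20), did not follow *CD163*. Without library b of SNEB at 1 wkpp the values of *CD68*, *CSF1R*, *AIF1*, *TREM2* and *TYROBP* were above 0. Both comparisons of -4 with 1 wkpp use the same 3 libraries at -4 wkpp.

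Between 1 and 16 wkpp in SNEB no marker and none of 10476 genes was called (0.0%), and 762 of 10628 genes (7.17%) had an unadjusted p below 0.05 on exonic reads. The exonic log2 fold changes lay between -0.56 for *CSF1R* (SE 0.19, adjusted p = 0.684) and 0.08 for *CD14* (SE 0.41, adjusted p = 0.963). The *CSF1R* libraries of 1 wkpp were all below those of 16 wkpp, which was so for 4.1% of all genes. The standard errors of *CD68*, *TYROBP* and *TREM2*, at 0.63, 0.59 and 0.96, were above that of *CSF1R*.

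Whether the change from 1 to 16 wkpp differed between SNEB and MNEB was tested with the interaction over the 12 libraries of lactation. Of the 8 markers and of all 10264 genes 0 were called (0.0%), and 521 of 10404 (5.01%) had an unadjusted p below 0.05 on exonic reads. All 8 markers had a negative interaction with the 12 libraries, that is a level at 16 wkpp relative to 1 wkpp that was higher in SNEB than in MNEB, while 51.6% of all genes had a positive one, and *CD14* turned to 0.52 without library a of MNEB at 1 wkpp. Their values ran from -2.21 for *TREM2* (SE 1.79) to -0.60 for *AIF1* (SE 0.78), with a median of -1.48 against 0.02 over all genes. Over all alternatives *TREM2* had -3.29 to -1.07 and *AIF1* -1.08 to -0.13. *CSF1R* had -1.37 (SE 0.44, adjusted p = 0.968), the smallest standard error of the 8. With reads of the entire gene the lowest adjusted p was 0.865, for *MSR1* at -1.86 (SE 0.53). On exonic reads no marker had an adjusted p below 0.968, so a difference between the NEB groups in this change was not shown for any marker.

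The markers differed in how many of their reads lay outside exons, within introns of the gene. Over all libraries this share was 64.3% for *MSR1*, 27.0% for *CSF1R*, 26.9% for *CD163*, 9.72% for *TYROBP*, 4.20% for *TREM2*, 4.03% for *AIF1*, 0.700% for *CD68* and 0.157% for *CD14*. *CSF1R*, *CD163* and *MSR1* had at least 50 reads in every library and could be compared between libraries. For *CSF1R* the share was 11.0 to 19.9% in the 6 MNEB libraries and 22.9 to 31.4% in the 9 others. The nearest pair was library a of MNEB at 1 wkpp, at 19.9% (95% Wilson interval 18.7 to 21.2%), and library a of SNEB at 1 wkpp, at 22.9% (22.0 to 23.8%). Such a pattern, with all MNEB libraries below all others, was present in 15.7% of 7439 genes with at least 50 reads in every library, and the opposite in 0.403%. It was absent for *CD163*, with 19.1 to 34.0% in MNEB and 21.4 to 36.4% elsewhere, and for *MSR1*, with 53.8 to 81.2% in MNEB and 54.5 to 74.7% elsewhere. Over all genes the share was 40.1 to 53.3% in MNEB libraries and 47.2 to 61.0% in the others, and its part in the *CSF1R* result was not tested. The intervals cover counting error only. They do not cover the pairing of exonic with entire-gene columns of a library, which rested on a small margin of correlation.

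**Figure D4:**
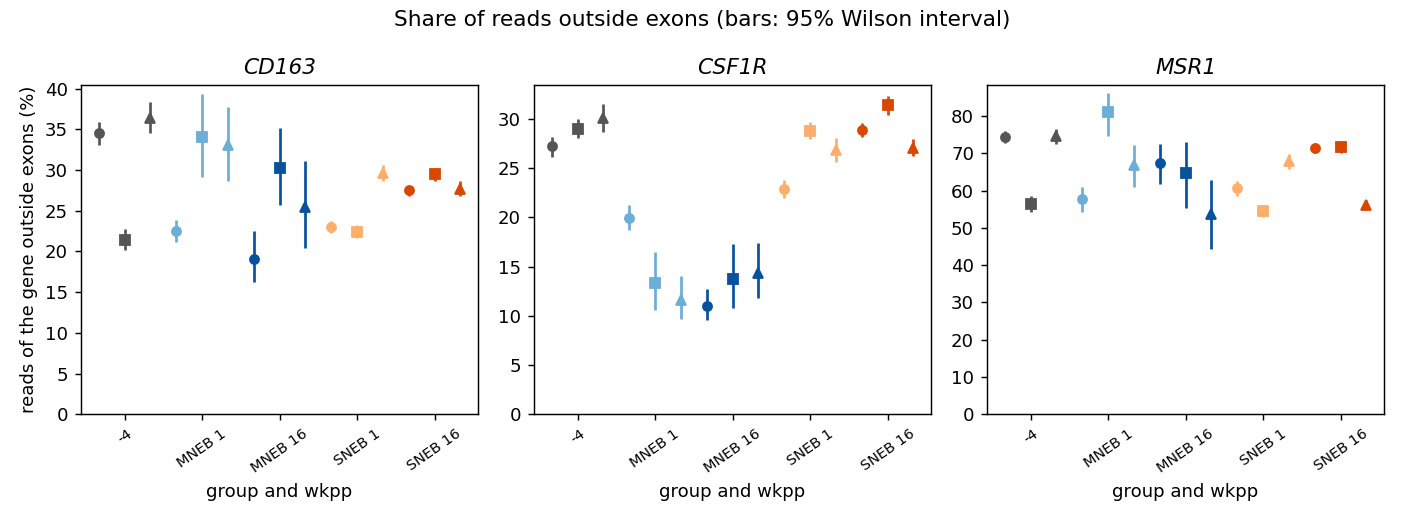
Share of the reads of CD163, CSF1R and MSR1 that lie outside exons, in percent, in each of the 15 libraries by group and week; bars are 95% Wilson intervals and circles, squares and triangles are libraries a, b and c. The 6 MNEB libraries are at 11.0 to 19.9% for CSF1R, below the 9 others, and are spread among the others for CD163 and MSR1.

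Other genes of macrophages were described by their counts beside the markers, in the comparison of SNEB with MNEB at 16 wkpp. Of the 35 further macrophage and monocyte genes that passed the filter for both kinds of reads, 7 were called, all higher in SNEB, beside 1.03% of all genes called higher. Of these 35 genes 4 had a mean below 10 reads in the MNEB libraries and passed the filter only through their reads in SNEB (*CD80*, *CX3CR1*, *CCR2* and *CLEC7A*), as did *TREM2* of the 8 markers and 4.93% of all genes. The median of the 35 was 2.03, beside 2.79 for the 8 markers and 0.04 over all genes. The called genes with the largest differences were *MPEG1*, which encodes the pore-forming perforin-2, at 3.59 (SE 0.39), the co-stimulatory molecule *CD86* at 3.10 (SE 0.48) and the hyaluronan receptor *LYVE1*, a marker of vessel-associated macrophages and of lymphatic endothelium, at 2.93 (SE 0.33). *C1QA*, *C1QB* and *C1QC*, which encode the chains of complement C1q, had exonic log2 fold changes of 3.87, 3.73 and 3.45, with adjusted p of 0.000532, 0.000266 and 0.000266. They could not be called because the entire-gene counts hold 0 reads of them, against 64133, 41068 and 33988 exonic reads in the 15 libraries, and the cause was not tested. At 1 wkpp their exonic log2 fold changes were 2.83, 2.07 and 2.32, with adjusted p of 0.0184, 0.0392 and 0.0341.

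Partners of the markers were counted in the same comparison, in which 3.6% of all genes were called in either direction. Of 5 ligands tested none was called, with a median of 0.74. *CSF1* and *IL34*, the ligands of CSF1R, had exonic log2 fold changes of 0.04 (SE 0.25) and -0.71 (SE 0.36). With reads of the entire gene they had 0.16 and 0.31, so that *IL34* changed sign. Of 7 genes of the signalling chain downstream of TYROBP 2 were called higher, the kinase *SYK* at 1.54 (SE 0.27) and *PIK3CG* at 0.99 (SE 0.17), with a median of 1.01. Of 10 genes of lipid-associated macrophages, the cells that TREM2 marks, 1 was called higher, the lysosomal protease *CTSB* at 1.63 (SE 0.18), with a median of 1.56, and 1 of these 10 had a mean below 10 reads in MNEB. The 11 measured genes of this list summed to 27800 to 38050 normalised reads in SNEB at 16 wkpp, against 11080 to 14600 for the 8 markers. Which cells these reads came from was not tested. None of 9 genes of classical activation and none of 6 of alternative activation was called, with medians of 0.63 and 0.92, and 4 of the former and 1 of the latter had a mean below 10 reads in MNEB.

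Markers of other cell types are set beside the same share of 3.6% of all genes called. None of 9 T cell genes, 3 neutrophil genes, 5 adipocyte genes and 2 keratinocyte genes was called, with medians of 1.02, 1.47, 0.11 and -0.22, and 5 of the T cell genes and 1 of the neutrophil genes had a mean below 10 reads in MNEB. Among 5 B cell genes *CR2* was called higher in SNEB at 3.96 (SE 0.42), with a median of -0.71, and 2 of these 5 had a mean below 10 reads in MNEB. Among 7 genes of blood and lymphatic endothelium *LYVE1*, which is also on the macrophage list, was called higher, and the median was 0.53. The single muscle gene tested, *TNNT3*, was called lower in SNEB at -3.27 (SE 0.29). The summed level of the 6 adipocyte genes was 9338 to 39180 normalised reads in MNEB at 16 wkpp and 41370 to 47720 in SNEB at 16 wkpp, with *FABP4*, *PLIN1* and *CIDEC* higher in the mean in SNEB. *LEP* and *CIDEA* had the higher mean in MNEB, at 79.4 against 21.0 and 269 against 235. *LIPE* had 1968 to 9060 in MNEB, a range that held all SNEB libraries at 4060 to 4421. The part of adipocyte RNA in the marker results was not tested.

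**Figure D5:**
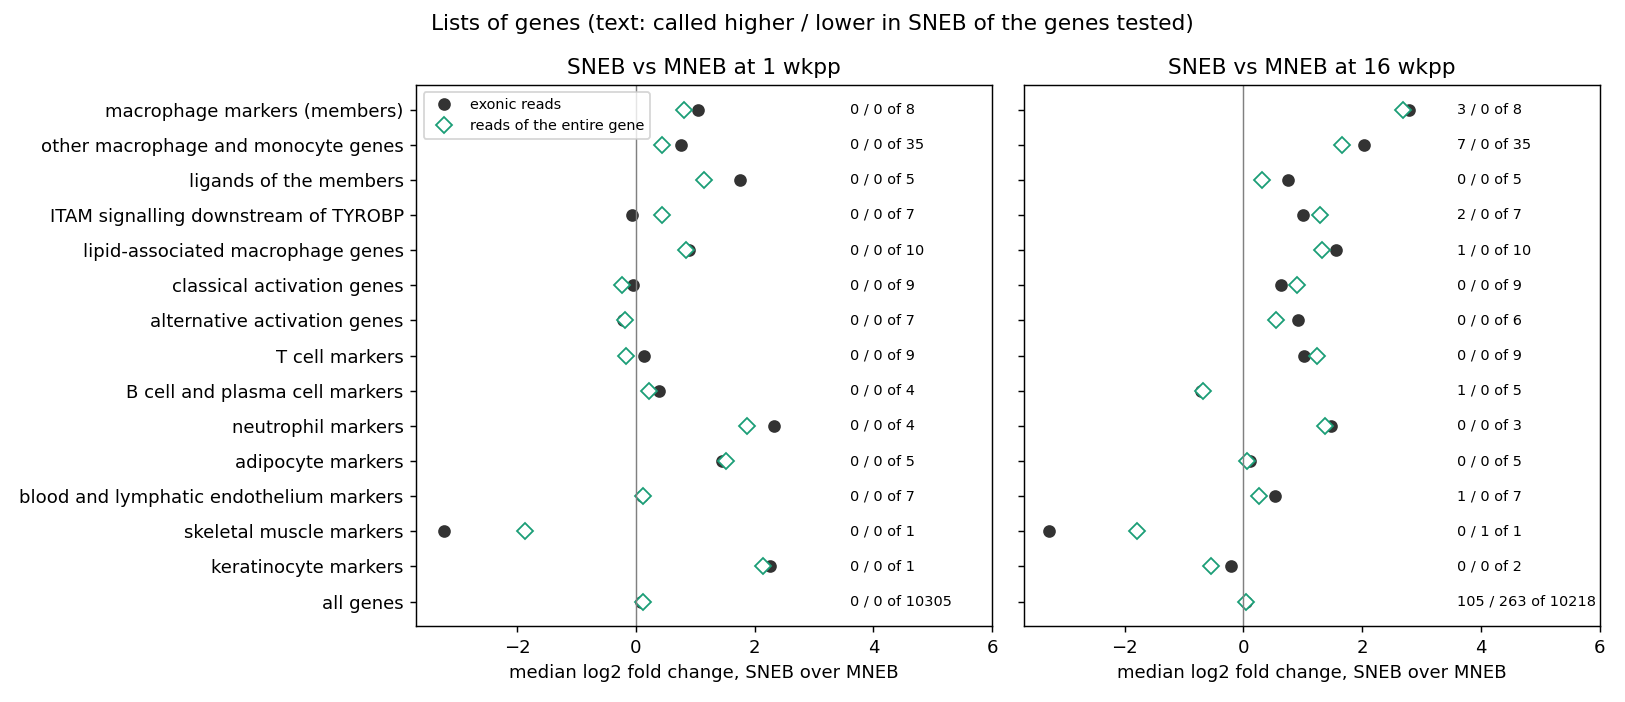
Median log2 fold change of SNEB over MNEB for the 8 markers, 13 other lists and all genes, for exonic reads (filled circles) and reads of the entire gene (diamonds), at 1 and 16 wkpp; the numbers at the right give the genes called higher and lower in SNEB of the genes tested. At 16 wkpp the markers and the further macrophage genes have exonic medians of 2.79 and 2.03, against 0.04 over all genes.

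The same lists were counted in the other comparisons. From -4 to 1 wkpp in MNEB, where 1.7% of all genes were called, 1 of 35 further macrophage genes was called, *LYVE1*, 8.15-fold higher at -4 wkpp. *C1QA*, *C1QB* and *C1QC*, which could not be called, had exonic reads 6.04-, 3.0- and 3.61-fold higher at -4 wkpp, with adjusted p of 0.0051, 0.0358 and 0.0341. In the same comparison 3 of 5 adipocyte genes, *LEP*, *CIDEA* and *CIDEC*, and *LPL* of the lipid-associated list were called higher at -4 wkpp. Which cells the *LPL* reads came from was not tested. From -4 to 1 wkpp in SNEB, where 0.0379% of all genes were called, 1 of 5 adipocyte genes, *CIDEA*, was called higher at -4 wkpp and 0 of 35 further macrophage genes. The median of the further macrophage genes was 0.88 for -4 over 1 wkpp in MNEB and -0.05 for -4 over 1 wkpp in SNEB, comparisons that share their libraries at -4 wkpp. It was 0.93 for 1 over 16 wkpp in MNEB and -0.38 for 1 over 16 wkpp in SNEB, where the 8 markers had 1.13 and -0.37.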

How the data were processed

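The authors sequenced stranded libraries of total RNA, depleted of ribosomal RNA, from dewlap fat of 15 samples. Per the submitters' processing notes the reads were demultiplexed with bcl2fastq 2.15.0, trimmed with cutadapt 1.3, mapped with TopHat2 to bosTau8 and counted with HTSeq, once on exons and once on the entire gene. The 6 deposited tables hold, for 13896 genes and 92 spike-in RNAs, the mean over 6 libraries of the counts divided by the authors' DESeq2 size factors. They also hold the authors' log2 fold changes, standard errors, Wald statistics, p-values and adjusted p-values, which were not used.

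The planned test assumed counts per library and the tables hold means. Since each mean is a sum of 6 whole numbers of reads weighted by the size factors, the whole reads of each library were recovered from the deposited means, and the recovered reads gave back each mean within a relative error of 6.7e-15. Exonic reads were recovered for 13877 genes and entire-gene reads for 13855. All 8 markers were recovered; for 6 of them the solution was the only one possible, and for *CD163* and *CSF1R* it was the nearest. Spike-in shares are of the 86 spike-ins recovered. Exonic and entire-gene columns of a library were paired by their correlation over genes, with mean correlations within groups of 0.876 to 0.943 against 0.862 to 0.936 for the next best pairing.

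Each comparison was fitted on its 6 libraries with limma 3.58.1 (voom, 0.5 read added, R 4.3.3) and the deposited size factors, for genes with a mean of at least 10 reads per library. P-values were adjusted by Benjamini-Hochberg over all genes tested. Levels were scaled by median-of-ratios over 15 libraries. Likeness to the markers used log2 values with 1 added. Depth was 1927489 to 13585409 exonic reads per library, and of the markers *TREM2* had the fewest reads. Methods were tested on simulated data. The simulated fits gave all genes the same spread and changed only genes with more reads, so they do not cover genes as low and variable as *TREM2*. The genes named are the markers, at most 3 called genes of a list and comparison, the 10 most similar genes, and genes a result turns on. *C1QA*, *C1QB*, *C1QC*, *SPI1*, *ITGAM*, *CSF1*, *IL34*, *CD80*, *CX3CR1*, *CCR2*, *CLEC7A*, *FABP4*, *PLIN1* and *LIPE* were named after their values were seen. The markers and lists were chosen with earlier results of these data known. No sequence or coordinate is given, since the reference at hand is of another assembly. Figures used matplotlib 3.10.9 under Python 3.11.15.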

Additional observations from a re-analysis of the deposited data

How the results depend on the processing

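Depth limits the MNEB libraries most, and 3 libraries a group leave few degrees of freedom. No paired analysis was possible because the libraries could not be tied to cows and the groups share no replicate number. Under the alternatives, 681 log2 fold changes of markers kept their direction and side of the threshold, 22 changed sign, 20 lost and 4 gained an adjusted p below 0.01, and all 40 group levels moved by less than 1 SD under scaling by total reads. With exonic reads alone or an adjusted p below 0.05, 1 marker (*CD163*) was called for -4 against 1 wkpp in SNEB, and 5 markers (*CD68* and *CD14* in addition) for SNEB against MNEB at 16 wkpp. Leaving out 1 library gave 0 to 1 called markers at 1 wkpp and 2 to 3 at 16 wkpp between the NEB groups, and 0 elsewhere. limma-trend in place of voom called 4 markers at 16 wkpp, with *CD14* added. Only 4 of the 10 most similar genes were shared when Spearman's rho replaced Pearson's r. Numbers of called genes over all genes depended on the setting: 0 to 1738 (176 in the report) for -4 against 1 wkpp in MNEB, 0 to 87 (4) for -4 against 1 wkpp in SNEB, 0 to 353 (0) for SNEB against MNEB at 1 wkpp and 50 to 1324 (368) at 16 wkpp, and 0 under every setting for 1 against 16 wkpp and for the interaction.

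Log2 fold changes of the markers that changed sign, none of them called, did so mostly when 1 library was left out, with these ranges over the libraries left out. For -4 over 1 wkpp in MNEB they were -0.12 to 1.30 for *CD68* and -1.33 to 0.24 for *TREM2*. For -4 over 1 wkpp in SNEB they were -0.99 to 0.26 for *CD68*, -0.26 to 0.016 for *CSF1R*, -0.59 to 0.16 for *AIF1*, -1.22 to 0.56 for *TREM2* and -0.76 to 0.45 for *TYROBP*, each positive without library b of SNEB at 1 wkpp alone. For 1 over 16 wkpp in MNEB they were -0.14 to 0.60 for *AIF1*, -0.47 to 1.35 for *CD14* and -0.12 to 2.02 for *TYROBP*, negative without library a of MNEB at 1 wkpp alone. For 1 over 16 wkpp in SNEB they were -0.28 to 0.45 for *CD14*, with -0.16 and -0.04 among them, -0.81 to 0.011 for *MSR1*, -1.22 to 0.032 for *CD68*, -1.63 to 0.15 for *TREM2* and -1.12 to 0.087 for *TYROBP*. For SNEB over MNEB at 1 wkpp, *TREM2* had -1.47 to 0.76, with 0.25 without library c of SNEB, and 0.065 and 0.10 with limma-trend after adding 1 or 5. In the interaction, refits added after the data were seen gave -1.42 to 0.52 for *CD14*, positive without library a of MNEB at 1 wkpp. The cause of these changes was not tested.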
